A study of Mus musculus with 54 samples.

Results

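The mRNA of 10 genes that control the G1 phase of the cell cycle was followed in mouse naive CD4+ T cells before and after stimulation through the T cell antigen receptor (TCR) and CD28. The genes were the D-type cyclins Ccnd2 and Ccnd3, the E-type cyclins Ccne1 and Ccne2, the cyclin-dependent kinases Cdk2, Cdk4, and Cdk6, and the kinase inhibitors Cdkn1a, Cdkn1b, and Cdkn2c, which encode the proteins p21, p27, and p18. They were taken by name, from a list drawn up with earlier results of these data known. Each name matched 1 of the 55385 genes listed in each of 2 count tables, and all 10 genes had reads and were tested in both.

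A resting T cell leaves G0 when TCR and CD28 signals raise D-type cyclins, which bind CDK4 and CDK6 and start to phosphorylate the retinoblastoma protein. E2F transcription factors are thereby released, E-type cyclins accumulate, and CDK2 carries the cell past the restriction point into S phase. The INK4 protein encoded by Cdkn2c binds CDK4 and CDK6, whereas the CIP/KIP proteins encoded by Cdkn1a and Cdkn1b bind cyclin-CDK complexes. The protein p27 is abundant in resting T cells and is known as a brake on their entry into the cell cycle.

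The CD5/CD6 experiment used a magnetic kit to enrich naive CD4+ T cells of WT, Cd5-/-, Cd6-/-, and Cd5-/-Cd6-/- C57BL/6 mice from lymph nodes and spleens that had been pooled. The LAT experiment used a flow cytometric sort of Lat fl-dtr maT-Cre mice, in which both groups carry the floxed allele and a T cell Cre transgene. Its WT cells were those that still expressed human DTR (the diphtheria toxin receptor encoded by the floxed Lat allele), and Lat-/- cells were those that had lost it. The WT groups are named CD5/CD6 WT and LAT WT cells. The mice were 8 to 10 wk old. Cd5-/- mice came from a backcrossed line, Cd6-/- mice carried a small CRISPR/Cas9 deletion, and Cd5-/-Cd6-/- mice carried 1 deletion that spans both neighboring genes on chromosome 19. The cells were taken without stimulation (0 h) or after 4 h or 20 h on plates coated with anti-CD3 (3 µg/ml), with anti-CD28 at 1 µg/ml in solution. Each genotype and time had 3 samples, 36 in the CD5/CD6 experiment and 18 in the LAT experiment. LAT is the adaptor on which TCR signals converge, and CD5 and CD6 are surface receptors that modulate these signals.

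Libraries held 20554354 to 45222554 counts in the CD5/CD6 experiment and 17784644 to 28501095 in the LAT experiment. Lat was measured at 5.69 to 19.1 CPM (counts scaled to the library total times its TMM factor) in Lat-/- cells and at 92.2 to 351 CPM in LAT WT cells. The CD5/CD6 WT libraries held 459 to 1345 CPM of Lat, above every LAT WT library. The 2 tables were scaled separately, and the cause of the lower Lat level in LAT WT cells was not tested. The second 0 h libraries labelled Cd5-/- and Cd6-/- went against their labels. The first of the pair held 719 CPM of Cd5 and 329 CPM of Cd6, and the other held 172 CPM of Cd5 and 1203 CPM of Cd6. The CD5/CD6 WT libraries at 0 h held 602 to 657 CPM of Cd5 and 600 to 661 CPM of Cd6. At 4 h the Cd5-/- libraries held 61.6 to 150 CPM of Cd5 and 1048 to 1245 CPM of Cd6. The Cd6-/- libraries at 4 h held 1133 to 1644 CPM of Cd5 and 230 to 312 CPM of Cd6. Whether the second 0 h libraries of these 2 labels were exchanged was not tested. The 2 libraries were kept under their labels, and counts of called genes were also taken without them. Estimates, intervals, and ranges are given with them unless a sentence says otherwise. CD4+ T cell markers (Cd3e, Cd3d, Cd4, Trac, and Lck) summed to 2725 to 6999 CPM in every library. Summed markers of B cells (6 genes) were at 65.9 to 584 CPM at 0 h and at 1.27 to 4.77 CPM at 20 h in the CD5/CD6 experiment and at 0.538 to 4.83 CPM in all LAT libraries, with up to 4 of the 6 markers at 0.

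The genes lie on 6 chromosomes of the GRCm38 build. Ccnd2 (chr6:127125162-127152193) and Cdkn1b (chr6:134920401-134925513) share chromosome 6, Ccnd3 (chr17:47505051-47599691) and Cdkn1a (chr17:29090976-29100727) chromosome 17, Cdk2 (chr10:128697939-128705031) and Cdk4 (chr10:127063534-127067920) chromosome 10, and Ccne2 (chr4:11191351-11204779) and Cdkn2c (chr4:109660876-109667189) chromosome 4. Ccne1 (chr7:38097984-38107534) and Cdk6 (chr5:3341485-3531008) lie apart. Exons of 7 of the 10 genes overlap exons of a gene on the opposite strand, from 34 bases of Cdk2 (Pmel) to 609 bases of Ccne2 (Ints8) and 641 bases of Cdk4 (Tspan31), which are 0.547%, 17.4%, and 19.7% of their exon lengths. The use of strand in counting was not stated, so reads of these stretches could belong to either gene.

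Promoter windows of 300 bases, from 250 bases before to 50 bases after an annotated start, were available from RefSeq on GRCm38.p6 for 8 of the 10 genes. They were searched on both strands for TTTCCCGC, TTTCGCGC, TTTGCCGC, and TTTGGCGC, the consensus letters of E2F sites. Among these genes 1, Cdk2, held a match. The Cdk2 window held 1 match, and 744 of all 32851 windows (2.26%) hold at least 1 of the 4 motifs on either strand. Counted by gene, 704 of 27025 (2.6%) have such a window. The windows below are those of Cdk2 (chr10:128705002-128705301, minus strand), with the match in capitals 140 bases before the start, and of Ccne1 (chr7:38107441-38107740, minus strand) and Cdkn1b (chr6:134920151-134920450, plus strand), the E-type cyclin and the inhibitor that moved in opposite directions at 20 h, both without a match.
Cdk2 promoter: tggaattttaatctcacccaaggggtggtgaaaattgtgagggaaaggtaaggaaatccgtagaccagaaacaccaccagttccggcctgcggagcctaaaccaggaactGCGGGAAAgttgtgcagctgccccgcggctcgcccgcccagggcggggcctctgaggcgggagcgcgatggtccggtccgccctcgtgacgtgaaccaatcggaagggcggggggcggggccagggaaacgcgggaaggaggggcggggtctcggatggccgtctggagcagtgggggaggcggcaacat
Ccne1 promoter: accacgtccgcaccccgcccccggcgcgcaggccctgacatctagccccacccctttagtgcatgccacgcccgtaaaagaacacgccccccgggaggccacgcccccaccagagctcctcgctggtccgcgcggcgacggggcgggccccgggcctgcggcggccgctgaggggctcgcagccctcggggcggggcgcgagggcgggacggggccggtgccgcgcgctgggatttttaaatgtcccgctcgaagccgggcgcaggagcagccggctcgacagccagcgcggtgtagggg
Cdkn1b promoter: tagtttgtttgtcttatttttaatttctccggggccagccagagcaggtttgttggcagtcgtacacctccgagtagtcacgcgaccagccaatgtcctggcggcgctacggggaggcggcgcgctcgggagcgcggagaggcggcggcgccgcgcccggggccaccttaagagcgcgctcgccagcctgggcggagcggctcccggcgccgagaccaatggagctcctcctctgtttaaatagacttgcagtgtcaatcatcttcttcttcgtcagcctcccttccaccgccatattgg

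In WT cells of both experiments, 8 of the 10 genes were higher and 1 was lower after 20 h of stimulation than at 0 h. Ccnd2, both E-type cyclins, all 3 kinases, Cdkn1a, and Cdkn2c rose, Cdkn1b fell, and Ccnd3 did not pass the test. Calls required more than a 2-fold change and a Benjamini-Hochberg adjusted p under 0.05 over all genes tested, by edgeR's quasi-likelihood test. By this rule 9 of the 10 genes were called in each experiment, beside 29.6% of all 32290 genes tested in the CD5/CD6 experiment (12.3% higher and 17.3% lower) and 23.5% of all 27780 in the LAT experiment (10.8% higher and 12.7% lower). Genes tested needed only 1 read in a table, and 10792 and 10151 of them averaged 50 or more counts. The share called among these was not computed, so the shares given here and below may be low for genes with that many reads. The median log2 fold change of the 10 genes was 1.99 and 1.73, and that of all genes tested was 0. The median of all genes was 0 in every comparison made, so it is not a measured background, here or below. At 4 h the genes had split. In CD5/CD6 WT cells 3 were higher and 4 lower (19.3% of all genes called, 8.24% higher and 11.1% lower), and in LAT WT cells 2 were higher and 3 lower (17.3%, with 8.05% higher and 9.29% lower). Between 4 h and 20 h, 7 rose in both, while 1 of the 10 (Cdkn1b) fell in the CD5/CD6 experiment (21% of all genes called, 8.74% higher and 12.2% lower) and 2 (Cdkn1a and Cdkn1b) fell in the LAT experiment (17.2%, with 7.9% higher and 9.32% lower). The samples are described as biological replicates, and the p-values cover variation among these samples only. The p-values, standard errors (SE), and intervals use a spread estimated partly across genes. They therefore do not measure the spread of each gene's own libraries alone. In bulk RNA, fewer cells with a transcript and less of it per cell cannot be told apart.

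**Figure D1:**
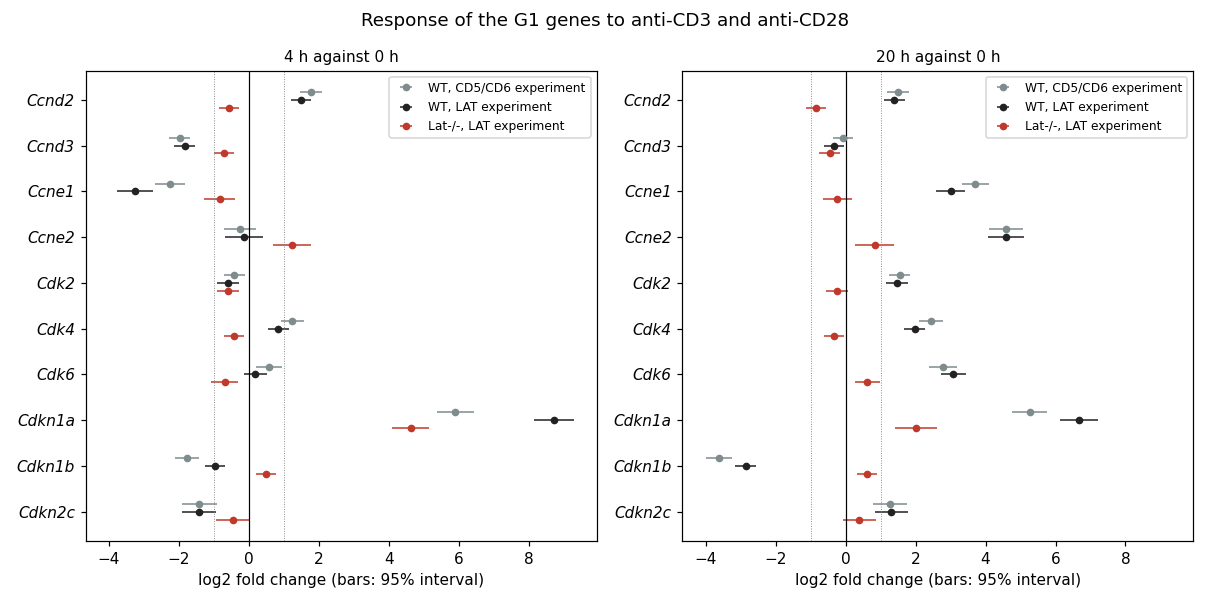
Log2 fold change of each gene (points, with 95% intervals as bars) at 4 h (left) and 20 h (right) against 0 h, in CD5/CD6 WT cells (gray), LAT WT cells (black), and Lat-/- cells (red). Dotted lines mark a fold change of 2, and at 20 h the WT points lie past it for every gene but Ccnd3, whereas the Lat-/- point does so for Cdkn1a alone.

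Few of these genes changed by more than 2-fold in Lat-/- cells. At 4 h against 0 h, 2 of the 10 were called (Cdkn1a and Ccne2, both higher, beside 6.7% of all genes called and 3.08% higher), and at 20 h 1 was (Cdkn1a, higher, beside 4.21% called and 2.14% higher). By adjusted p alone, with no fold threshold, 9 of the 10 passed at 4 h (15.4% of all genes) and 6 at 20 h (10.7%), and leaving out each replicate number gave 1 to 3 called genes at 4 h. Compared directly with WT cells, Lat-/- cells differed in 1 gene at 0 h (Cdk6, lower, beside 0.961% of all genes called and 0.814% lower). At 4 h they differed in 8 (4 higher and 4 lower, beside 11.7% called, 5.51% higher and 6.23% lower) and at 20 h in 9 (Cdkn1b higher and 8 lower, beside 24.4% called, 12.1% higher and 12.3% lower). These p-values depend on the genes kept in the fit. In the LAT experiment, the largest adjusted p among the 61 called values of these genes was 0.00428 with all genes that had a read and 0.0573 when genes with low counts were left out, and leaving them out took 1 of the 61 past 0.05. The smallest edgeR adjusted p was 1.41e-202 in the first of these fits and 2.88e-12 in the second. The very small p-values printed below belong to the first fit and are far larger in the second. The SEs and intervals given for this experiment, in text and figures, also belong to the first fit. For Cdk6 between Lat-/- and WT cells at 0 h, the log2 difference was -1.12 in both fits. Its edgeR adjusted p was 1.82e-07 in the first and 0.0573 in the second. The SEs and intervals may therefore be too narrow. The test of the difference between the 2 responses called 7 genes at 4 h (8.71% of all genes) and 8 at 20 h (19.5%). The median difference at 20 h was -2.28 on the log2 scale, beside 0 over all genes tested. With the libraries of 3 samples on each side, the ranges of the 2 genotypes were apart for 5 genes at 0 h, 8 at 4 h, and all 10 at 20 h, beside 8.69%, 31.1%, and 43.3% of all genes tested. Among the 10151 genes that averaged 50 or more counts they were apart for 14.1%, 66.2%, and 83.5%, so ranges that are apart at 4 h and 20 h are common among genes with that many reads. Markers of other cells moved with the genotype in these samples. The 6 myeloid markers (Lyz2, Csf1r, Itgam, Cd14, Fcgr3, and Adgre1) summed to 12.4 to 18.1 CPM in Lat-/- cells at 20 h, with up to 3 of the 6 at 0 in a library, and to 0.332 to 0.839 CPM in WT cells, with up to 4 at 0. The CD4+ T cell markers summed to 4766 to 5366 CPM in Lat-/- cells at 20 h and to 2804 to 3207 CPM in WT cells. The part of these markers in the values below was not tested.

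**Figure D2:**
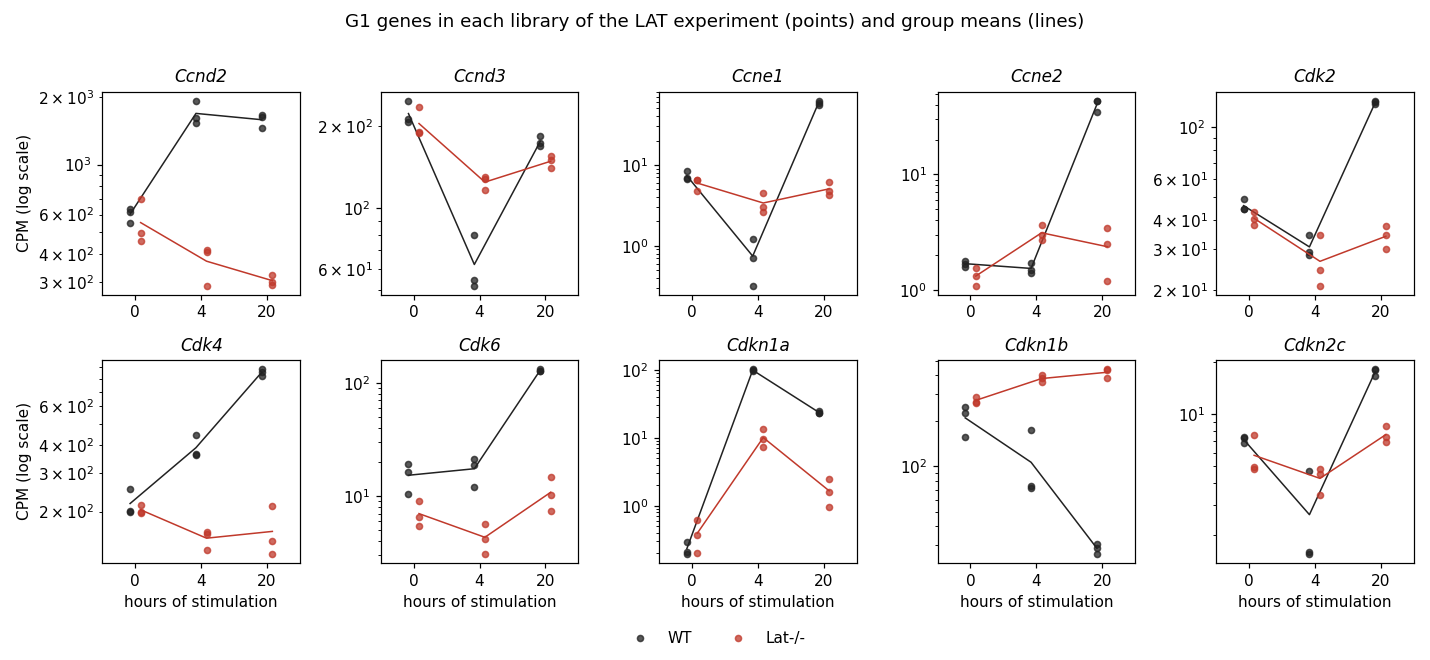
CPM of each gene on a log axis in the 3 libraries (points) and as the group mean (lines) of WT (black) and Lat-/- (red) cells of the LAT experiment, at 0 h, 4 h, and 20 h. The points of the genotypes are apart at all 3 times for Ccne1, Ccne2, Cdk6, and Cdkn1b. They are apart from 4 h on for Ccnd2, Ccnd3, Cdk4, and Cdkn1a. Ccne1 and Ccne2 are higher in Lat-/- than in WT cells at 4 h and lower at 20 h.

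Ccnd2 encodes cyclin D2, the partner of CDK4 and CDK6 that mitogens induce in lymphocytes. LAT WT cells held 616, 553, and 638 CPM at 0 h, 1615, 1920.2, and 1533 CPM at 4 h, and 1629, 1664, and 1458 CPM at 20 h. The Lat-/- libraries held 457, 702, and 499 CPM at 0 h, 407, 290.0, and 419 CPM at 4 h, and 291, 302, and 322 CPM at 20 h. The genotypes overlapped at 0 h, and from 4 h on every Lat-/- library was below every WT library. In WT cells Ccnd2 rose 2.81-fold at 4 h (log2 fold change 1.49, SE 0.15; edgeR adjusted p = 3.09e-22) and did not pass the test between 4 h and 20 h (-0.09, 95% interval -0.38 to 0.19). In Lat-/- cells it was lower at 20 h than at 0 h by less than the fold threshold (-0.86, SE 0.15, edgeR adjusted p = 2.49e-07). The responses differed by -2.06 (SE 0.21) at 4 h and -2.25 (SE 0.21) at 20 h. In CD5/CD6 WT cells it was at 586, 561, and 812 CPM, then 2157, 2279, and 2268 CPM, then 1971, 1799.6, and 1708 CPM.

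Ccnd3 encodes cyclin D3, the other D-type cyclin of T cells, and followed the opposite course at 4 h. In LAT WT cells it was at 207, 247, and 213 CPM at 0 h, at 54.5, 52.1, and 80.0 CPM at 4 h, and at 169, 184, and 174 CPM at 20 h. In Lat-/- cells it was at 189, 234, and 190.2 CPM, then 117, 128, and 129.8 CPM, then 141, 150.0, and 155 CPM. Both genotypes had their lowest levels at 4 h. The 4 h change amounted to -1.84 (SE 0.15) on the log2 scale in WT cells and to -0.71 (SE 0.15) in Lat-/- cells, and the difference of 1.12 (SE 0.21) passed the test (edgeR adjusted p = 2.73e-06). At 20 h WT cells were 2.82-fold above their 4 h level, and the difference of the responses from 0 h was -0.12 (95% interval -0.53 to 0.29). The direct difference between genotypes at 4 h stood at the fold threshold (fold 2.00) and fell below it without the libraries numbered 1 (log2 difference 0.99) or 2 (0.90). It also fell just below when genes with low counts were left out of the fit (0.9997). The CD5/CD6 WT libraries held 206, 164, and 219 CPM, then 53.8, 43.5, and 51.7 CPM, then 212, 167, and 176 CPM, the same dip and return.

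Ccne1 encodes cyclin E1, the partner of CDK2 at the G1/S border. LAT WT cells held 6.63, 6.94, and 8.44 CPM at 0 h, 0.701, 0.321, and 1.21 CPM at 4 h, and 58.5, 62.0, and 55.6 CPM at 20 h. In Lat-/- cells the levels were 6.52, 4.75, and 6.59 CPM, then 2.65, 4.46, and 3.02 CPM, then 4.30, 4.71, and 6.14 CPM. Every WT library was below every Lat-/- library at 4 h and above every one at 20 h. The WT level fell 9.57-fold by 4 h (log2 fold change -3.26, SE 0.26) and then rose 76.4-fold from 4 h to 20 h (6.26, SE 0.27; edgeR adjusted p = 7.6e-118). Both folds rest on few WT reads at 4 h, from 7 to 32 in a library. The difference of responses, Lat-/- minus WT, was 2.43 (SE 0.35) at 4 h and -3.23 (SE 0.30) at 20 h, both past the threshold in opposite directions. CD5/CD6 WT cells showed the same order of times, with 8.58, 6.72, and 6.50 CPM, then 1.92, 1.50, and 1.10 CPM, then 103, 92.2, and 89.7 CPM.

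Ccne2, which encodes the second E-type cyclin, showed no fall at 4 h. LAT WT cells held 1.69, 1.57, and 1.79 CPM at 0 h, 1.50, 1.70, and 1.40 CPM at 4 h, and 43.2, 43.3, and 34.9 CPM at 20 h. Lat-/- cells held 1.09, 1.31, and 1.55 CPM, then 3.64, 2.99, and 2.71 CPM, then 2.48, 1.19, and 3.41 CPM. At 4 h every Lat-/- library was above every WT library, and at 20 h every one was below. The WT change at 4 h was -0.14 (95% interval -0.69 to 0.40), and at 20 h the WT level was 24.0-fold that of 0 h (log2 fold change 4.58, SE 0.27; edgeR adjusted p = 2.43e-64). Lat-/- cells rose 2.36-fold at 4 h (1.24, SE 0.28; edgeR adjusted p = 0.00011), and their change at 20 h (0.82, SE 0.28) stayed under the fold threshold. The 4 h rise rests on few reads, and without the libraries numbered 1 it was 0.99 (edgeR adjusted p = 0.0795), as the difference of responses at 4 h, 1.38 (SE 0.39), became 1.16 (edgeR adjusted p = 0.195). With the compared groups fitted alone that difference was 1.40 (edgeR adjusted p = 0.0854). The direct call between Lat-/- and WT cells at 4 h was lost without the libraries numbered 1 (log2 difference 0.91, edgeR adjusted p = 0.0693). Without the third WT library at 4 h it was at 0.99, just under the fold threshold. Levels in CD5/CD6 WT cells were 5.05, 2.23, and 2.72 CPM, then 3.40, 2.95, and 1.88 CPM, then 69.7, 89.8, and 80.1 CPM.

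Cdk2 encodes the kinase bound by E-type cyclins. Its levels in LAT WT cells were 44.4, 44.3, and 49.2 CPM at 0 h, 29.1, 28.2, and 34.4 CPM at 4 h, and 129.6, 128, and 126 CPM at 20 h. In Lat-/- cells it was at 38.0, 43.3, and 40.3 CPM, then 24.3, 20.8, and 34.3 CPM, then 37.6, 29.8, and 34.4 CPM. The genotypes overlapped at 4 h and were apart at 0 h and 20 h. The 4 h change was under the fold threshold in both genotypes, with -0.59 (SE 0.16) in WT cells and -0.61 (SE 0.16) in Lat-/- cells, and the difference between them was -0.02 (95% interval -0.47 to 0.42). At 20 h WT cells rose 2.78-fold over 0 h, and Lat-/- cells were at -0.26 (95% interval -0.57 to 0.06) on the log2 scale, a difference of -1.73 (SE 0.22; edgeR adjusted p = 2.9e-13). Among CD5/CD6 WT cells the libraries held 43.4, 49.3, and 53.1 CPM, then 35.9, 35.6, and 37.1 CPM, then 153, 129, and 141 CPM.

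Cdk4, a kinase of D-type cyclins, was higher at both times of stimulation in WT cells. The LAT WT libraries held 198, 253, and 202 CPM at 0 h, 444, 363, and 362 CPM at 4 h, and 827, 859, and 886 CPM at 20 h. The Lat-/- libraries held 197, 214, and 200.03 CPM, then 134, 159, and 161 CPM, then 148, 129, and 211 CPM. The genotypes overlapped at 0 h alone. The WT increase was 1.79-fold at 4 h, under the fold threshold, and 3.94-fold at 20 h (log2 fold change 1.98, SE 0.15; edgeR adjusted p = 7.13e-37). Cdk4 in Lat-/- cells was at -0.43 (SE 0.15) at 4 h and -0.33 (SE 0.15) at 20 h against 0 h, and the responses differed by -1.27 (SE 0.21) and -2.30 (SE 0.21), of which the first came to lie just under the fold threshold without the libraries numbered 1. In CD5/CD6 WT cells it was at 166, 169.9, and 202 CPM, then 452, 378, and 433 CPM, then 852, 942, and 1129 CPM. There the 4 h increase of 2.35-fold was past the threshold, and with library totals in place of TMM scaling it was 0.99 on the log2 scale, just under it.

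Cdk6, the other kinase of D-type cyclins, was the 1 gene of the 10 called between WT and Lat-/- cells without stimulation. WT cells held 16.4, 10.4, and 19.1 CPM at 0 h and Lat-/- cells 5.48, 6.57, and 8.99 CPM, with no overlap. The difference was 2.17-fold (log2 fold change -1.12, SE 0.18; edgeR adjusted p = 1.82e-07). The call was lost without the libraries numbered 1 (-0.93) and when genes with low counts were left out of the fit (edgeR adjusted p = 0.0573), and it was kept by DESeq2 (adjusted p = 0.00557). At 4 h the libraries were at 18.8, 21.4, and 12.1 CPM in WT cells and 4.18, 3.11, and 5.72 CPM in Lat-/- cells, and at 20 h at 127, 127, and 132 CPM and 10.2, 7.46, and 14.8 CPM. From 0 h to 20 h WT cells rose 8.42-fold (3.07, SE 0.18), and Lat-/- cells were 1.54-fold higher (0.62, SE 0.18; edgeR adjusted p = 0.00921), which is under the fold threshold. The difference between the responses was -2.45 (SE 0.25) at 20 h. The CD5/CD6 WT libraries held 20.2, 22.6, and 17.5 CPM, then 35.7, 29.3, and 24.4 CPM, then 171, 136, and 108 CPM. The gamma delta T cell markers (4 genes) also differed between the sorted cells at 0 h, at 31.1 to 44.7 CPM in WT and 14.4 to 16.4 CPM in Lat-/- cells, and their part in the Cdk6 difference was not tested.

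Cdkn1a, which encodes the CIP/KIP inhibitor p21, had the highest fold change of the 10 genes in WT cells at 4 h. LAT WT cells held 0.196, 0.289, and 0.210 CPM at 0 h (5, 7, and 6 reads), 104, 96.3, and 99.0 CPM at 4 h, and 23.6, 25.0, and 23.2 CPM at 20 h. In Lat-/- cells the levels were 0.197, 0.373, and 0.610 CPM at 0 h (4, 8, and 15 reads), 9.60, 7.28, and 13.4 CPM at 4 h, and 1.57, 0.965, and 2.44 CPM at 20 h. The time course had the same shape in both genotypes, a rise by 4 h and a decline by 20 h, and every stimulated Lat-/- library was below every WT library of its time. The WT increase at 4 h was 423-fold (log2 fold change 8.72, SE 0.28; edgeR adjusted p = 1.41e-202) and that of Lat-/- cells 24.7-fold (4.63, SE 0.27; edgeR adjusted p = 1.16e-63). The level then fell by 2.06 (SE 0.18) in WT cells and by 2.62 (SE 0.22) in Lat-/- cells on the log2 scale. These folds rest on few reads at 0 h, and the direct difference between genotypes, which does not use 0 h, was 9.85-fold at 4 h and 14.5-fold at 20 h. In CD5/CD6 WT cells the gene was at 1.20, 0.632, and 1.41 CPM, then 60.5, 73.0, and 62.0 CPM, then 34.1, 46.5, and 44.8 CPM. The 0 h libraries of all 4 genotypes there held 0.568 to 1.92 CPM, beside summed myeloid markers of 50.2 to 376 CPM, against 3.68 to 6.03 CPM of these markers at 0 h in the LAT experiment. The tables were scaled separately, and the part of other cells in this level was not tested.

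Cdkn1b, which encodes the CIP/KIP inhibitor p27, had changes of opposite sign in the 2 genotypes. Levels in LAT WT cells were 224, 157, and 246 CPM at 0 h, 74.3, 71.4, and 173 CPM at 4 h, and 26.4, 28.8, and 30.7 CPM at 20 h. Lat-/- cells held 266, 263, and 288 CPM, then 399, 359, and 383 CPM, then 439.6, 434, and 382 CPM. No Lat-/- library overlapped a WT library at any time. In WT cells the level was 7.29-fold lower at 20 h than at 0 h (log2 fold change -2.87, SE 0.16; edgeR adjusted p = 1.15e-69), and in Lat-/- cells it was 1.54-fold higher (0.62, SE 0.15; edgeR adjusted p = 0.000642), under the fold threshold. The difference of responses was 1.45 (SE 0.21) at 4 h and 3.48 (SE 0.22) at 20 h, and Lat-/- cells held 14.6-fold more at 20 h. The third WT library at 4 h stood apart from the other 2. With it the WT change at 4 h was -0.97 (SE 0.15), under the fold threshold, and without it -1.55 (edgeR adjusted p = 4.01e-20), past the threshold. Levels in CD5/CD6 WT cells were 268, 293, and 217 CPM, then 53.2, 87.1, and 86.6 CPM, then 22.4, 17.4, and 23.1 CPM, a fall of 12.4-fold by 20 h.

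Cdkn2c, which encodes the INK4 inhibitor p18, fell and then rose in WT cells. LAT WT cells held 6.78, 7.40, and 7.28 CPM at 0 h, 1.59, 1.56, and 4.72 CPM at 4 h, and 18.1, 18.3, and 16.7 CPM at 20 h. The Lat-/- libraries held 4.94, 4.85, and 7.56 CPM, then 3.39, 4.52, and 4.84 CPM, then 8.60, 6.87, and 7.40 CPM. The groups overlapped at 0 h and 4 h and were apart at 20 h, when WT cells held 2.32-fold more (log2 fold change -1.22, SE 0.24; edgeR adjusted p = 1.31e-06). The WT change was -1.43 (SE 0.25) at 4 h and 1.31 (SE 0.24) at 20 h, and neither Lat-/- change passed the test (-0.45, 95% interval -0.94 to 0.03, and 0.39, 95% interval -0.08 to 0.86). The difference of responses stayed under the fold threshold at 4 h (0.97, SE 0.35; edgeR adjusted p = 0.0402) and at 20 h (-0.91, SE 0.34; edgeR adjusted p = 0.0265). Without the third WT library at 4 h, which again stood apart, the first of these was 1.74 (edgeR adjusted p = 3.97e-05), past the threshold. Among CD5/CD6 WT cells the libraries held 6.78, 6.14, and 7.15 CPM, then 3.34, 1.99, and 2.16 CPM, then 18.6, 14.9, and 14.8 CPM.

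No change of these genes was detected in cells without CD5, CD6, or both. In 9 comparisons of a knockout with WT cells at 1 time and 6 differences between responses, 0 of the 10 genes were called, by edgeR (smallest adjusted p = 0.717). DESeq2 called 0 as well. At an unadjusted edgeR p under 0.05, 5 of the 150 tests (3.33%) passed, beside 2.31% of the tests of all genes in the same 15 comparisons. These were 1 for Cd5-/- cells at 0 h, 2 for Cd5-/- cells at 4 h, 1 for Cd5-/-Cd6-/- cells at 4 h, and 1 for the difference of the Cd5-/- response at 4 h (Cdkn1a at 0 h, Ccne1 and Cdkn1b, Cdkn2c, and Ccne1 in that order). Few genes of any kind were called in these comparisons, with 0.0619%, 0.0743%, and 0.0186% of all genes for Cd5-/- cells at 0 h, 4 h, and 20 h, 0%, 0.0031%, and 0.0186% for Cd6-/- cells, and 0.0248%, 0.0434%, and 0.0434% for Cd5-/-Cd6-/- cells. The differences of responses called 0.0031% of genes at each time for Cd5-/- cells, 0% and 0.0031% for Cd6-/- cells, and 0% at both times for Cd5-/-Cd6-/- cells. With the 2 libraries against their labels kept, the 150 estimates ran from -0.78 to 0.65 on the log2 scale. Their 95% intervals spanned -1.39 to 1.35, and 15 of them reached past a fold change of 2. A single number decided 2 of these counts. Without the libraries numbered 3, Ccne1 was lower in Cd5-/- than in WT cells at 4 h (-1.21, edgeR adjusted p = 0.000294), and without those numbered 2, which include the library against its label, Cdkn1a was lower in Cd5-/- cells at 0 h (-1.11, edgeR adjusted p = 0.0357).

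**Figure D3:**
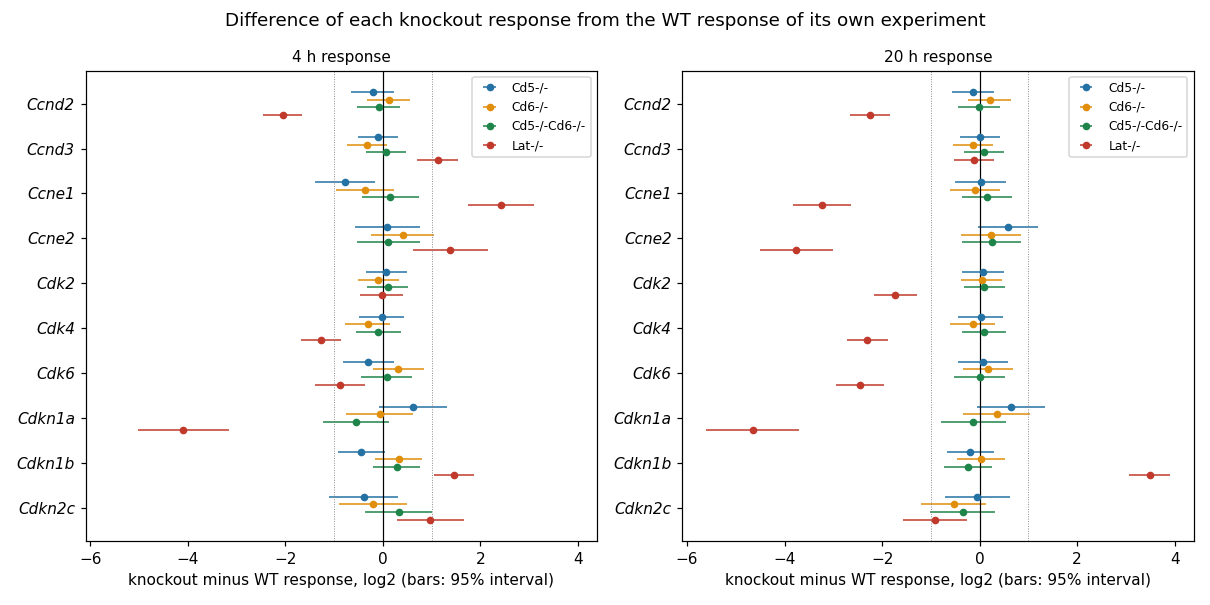
Difference between each knockout response and the WT response of the same experiment on the log2 scale (points, with 95% intervals as bars) at 4 h (left) and 20 h (right). Cd5-/- (blue), Cd6-/- (orange), and Cd5-/-Cd6-/- (green) points lie between -0.78 and 0.65, and Lat-/- points (red) lie between -4.66 and 3.48.

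The knockouts of the CD5/CD6 experiment also responded to stimulation in most of these genes. Called genes numbered 7, 6, and 7 of the 10 at 4 h in Cd5-/-, Cd6-/-, and Cd5-/-Cd6-/- cells (19.5%, 18%, and 17.2% of all genes) and 9, 8, and 8 at 20 h (30%, 28.2%, and 30.3%). Over the 9 knockout libraries of each time, Ccnd2 ran from 507 to 835 CPM at 0 h, from 1845 to 2204 CPM at 4 h, and from 1448 to 2007 CPM at 20 h. Cdkn1b ran from 194 to 295 CPM, then from 48.5 to 106 CPM, then from 17.5 to 23.2 CPM. For these 2 genes the libraries of each knockout overlapped those of WT cells at every time. Ccne1 in these libraries was at 6.19 to 9.60 CPM, 0.700 to 2.13 CPM, and 92.3 to 131 CPM. Cdkn1a was at 0.568 to 1.92 CPM, 42.9 to 63.7 CPM, and 22.2 to 56.8 CPM. The gamma delta T cell markers were higher in Cd5-/- and Cd5-/-Cd6-/- cells (56.9 to 86.2 CPM at 4 h) than in WT cells (20.7 to 22.5 CPM), and none of the 10 genes was called in those comparisons. Over the 9 comparisons of a knockout with WT cells at 1 time, libraries were apart in 4 of 90 cases, beside 4.4% of all genes tested. These were Cdk2 at 4 h in Cd5-/- (38.1 to 40.6 CPM) and Cd6-/- cells (31.2 to 35.4 CPM) against 35.6 to 37.1 CPM in WT cells, Cdkn1a at 4 h in Cd5-/-Cd6-/- cells (50.3 to 54.3 against 60.5 to 73.0 CPM), and Ccne1 at 20 h in Cd5-/-Cd6-/- cells (104 to 131 against 89.7 to 103 CPM), and none of the 4 was called. Without the second 0 h libraries labelled Cd5-/- and Cd6-/-, the counts were the same in all 24 comparisons of the experiment.

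Levels of different genes were compared per kilobase of summed exon length. At 20 h in LAT WT cells, the order was Cdk4 (264 CPM per kilobase ± 9.07, SD, n = 3), Ccnd2 (168 ± 11.7), Ccne1 (22.0 ± 1.20), Cdk2 (20.5 ± 0.313), Ccnd3 (20.0 ± 0.911), Ccne2 (11.6 ± 1.38), Cdk6 (9.21 ± 0.203), Cdkn1a (6.74 ± 0.262), Cdkn2c (6.59 ± 0.310), and Cdkn1b (6.29 ± 0.478). The ranges of Cdk2 and Ccnd3 overlapped, as did those of the 3 inhibitors, which were the lowest of the list. The order differed in CD5/CD6 WT cells at 20 h. There Cdkn1a (11.8 ± 1.90) stood above Cdk6 (9.89 ± 2.27) with ranges that overlapped. Cdkn2c (6.00 ± 0.814) and Cdkn1b (4.61 ± 0.678) were the lowest and did not overlap. At 20 h in Lat-/- cells Cdkn1b was the highest, at 91.9 CPM per kilobase ± 7.00 (SD, n = 3), above Cdk4 (50.1 ± 13.3), Ccnd2 (32.4 ± 1.67), Ccnd3 (16.9 ± 0.827), Cdk2 (5.46 ± 0.632), Cdkn2c (2.84 ± 0.330), and Ccne1 (1.90 ± 0.363). The lowest 3 were Cdk6 (0.774 ± 0.267), Ccne2 (0.674 ± 0.319), and Cdkn1a (0.466 ± 0.209), whose ranges overlapped. Without stimulation Cdk4 (67.0 ± 9.40) and Ccnd2 (64.0 ± 4.70) overlapped at the top in WT cells, above Cdkn1b (45.9 ± 10.2), and in Lat-/- cells Cdk4 (62.7 ± 2.72), Cdkn1b (59.9 ± 3.02), and Ccnd2 (58.7 ± 13.9) overlapped. Summed exon lengths count every annotated isoform, and the 13989 bases of Cdk6 make its per-kilobase level a low estimate where shorter isoforms prevail.

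Shares within pairs of related genes do not depend on scaling between libraries. The share of Ccnd2 in the summed per-kilobase counts of Ccnd2 and Ccnd3 began at 71.6% ± 3.48 (SD, n = 3) in unstimulated LAT WT cells, reached 96.1% ± 1.28 after 4 h, and stood at 89.3% ± 0.682 after 20 h. The same share in Lat-/- cells was 71.3% ± 2.17, 73.2% ± 4.59, and 65.7% ± 0.379. The share rose by 17.8 percentage points from 0 h to 20 h in WT cells and changed by -5.65 percentage points in Lat-/- cells, and at 20 h the genotypes were 23.7 percentage points apart (Lat-/- minus WT: -23.7) with no overlap. For Ccne1 in Ccne1 and Ccne2, the WT share was 85.1% ± 1.19 before stimulation, 37.1% ± 16.7 after 4 h, and 65.7% ± 1.86 after 20 h. The Lat-/- share was 85.4% ± 3.06, then 58.1% ± 8.74, then 74.6% ± 8.10. Both genotypes thus had their lowest mean Ccne1 share after 4 h, and the WT value there rests on few reads. For Cdk6 in Cdk4 and Cdk6, the WT share was 1.66% ± 0.635 before stimulation, 1.03% ± 0.295 after 4 h, and 3.37% ± 0.0676 after 20 h. The Lat-/- share was 0.794% ± 0.210, then 0.662% ± 0.189, then 1.50% ± 0.153. Shares after 4 h were not tested. Of 12 comparisons by a two-sided exact permutation test, 10 gave p = 0.1, the smallest that 3 against 3 samples allow (Benjamini-Hochberg adjusted p = 0.12), so none could pass 0.05. The exceptions were Ccne1 in Lat-/- cells over time (exact p = 0.2) and Cdk6 in CD5/CD6 WT cells over time (exact p = 0.4).

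**Figure D4:**
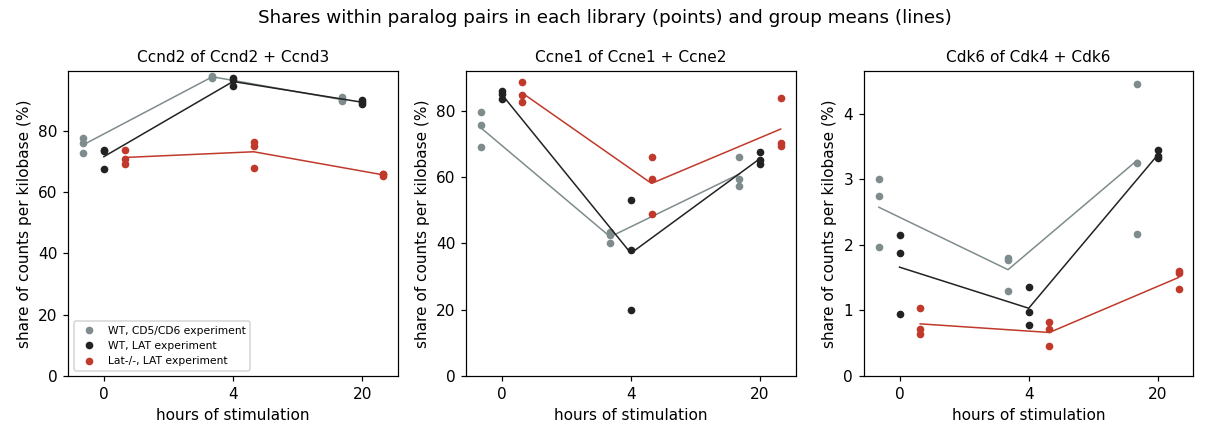
Share of Ccnd2 in Ccnd2 and Ccnd3, of Ccne1 in Ccne1 and Ccne2, and of Cdk6 in Cdk4 and Cdk6 (counts per kilobase, percent) in each library (points) and as group means (lines), for CD5/CD6 WT cells (gray), LAT WT cells (black), and Lat-/- cells (red). The Ccnd2 share lies between 94.7% and 98.0% at 4 h in the WT libraries and at 76.5% or less in every Lat-/- library.

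The 10 genes were set beside 34 other genes of the same pathway in 4 lists. At 20 h against 0 h, 12.3% of all genes tested were called higher and 17.3% lower in CD5/CD6 WT cells. In LAT WT cells these shares were 10.8% and 12.7%. Among 13 genes of the RB and E2F families, 7 rose and 1 fell at 20 h in CD5/CD6 WT cells, and 6 rose and 1 fell in LAT WT cells, with median log2 fold changes of 1.12 and 0.80 beside 0 over all genes tested. Those with the highest fold change in both were E2f8 (log2 fold change 3.90 and 5.79), E2f1 (4.44 and 4.36), and Tfdp1, an E2F partner (3.34 and 3.03), and the 1 that fell was Rbl2 (-2.50 and -1.72), a relative of the retinoblastoma protein found in resting cells. Of 10 genes of CDK activation and inhibitor turnover, 5 and 4 rose and none fell, led by Cks1b (3.86 and 4.01), a cofactor in the degradation of p27, Cdc25a (2.22 and 1.93), a phosphatase that activates CDK2, and Ccnh (1.65 and 1.24), a subunit of the CDK-activating kinase, and the medians were 0.99 and 0.85. Of the 5 other D cyclin, INK4, and CIP/KIP genes, none rose and 3 and 2 fell, with Cdkn2d, an INK4 inhibitor, at -3.00 and -3.03 and medians of -3.00 and -1.52. Of the 6 cyclins, kinases, and markers of S, G2, and M phases, 5 and 6 rose, led by Cdk1 (5.35 and 6.39), Ccna2 (4.70 and 6.94), and Ccnf (3.42 and 4.16), with medians of 3.61 and 5.03. Among Lat-/- cells at 20 h the counts of genes that rose and fell were 1 and 1 of 13, 0 and 0 of 10, 0 and 0 of 5, and 2 and 0 of 6 in the same order of lists. Of all genes tested, 4.21% were called there, with 2.14% higher. Against WT cells at 20 h, 1 was higher and 6 lower of the 13, 4 lower of the 10, 3 higher of the 5, and 6 lower of the 6, with medians of -0.99, -0.77, 2.16, and -4.82. In that comparison 12.1% of all genes tested were called higher and 12.3% lower.

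For each gene, the 3 genes with the most similar pattern were taken by the lower of its 2 Pearson correlations of log2 CPM, over the 12 condition means of the CD5/CD6 experiment and the 6 of the LAT experiment, among 10086 genes. For Cdkn1b these were Setd1b, Card6, and Tent5a, for Ccnd2 Dhx37, Fasn, and Frrs1, and for Cdk4 Psmg1, Uchl3, and Mrpl51, the last with r = 0.998 and 0.997. Ccne2 was most like Acp1, Ctc1, and Pold3, a subunit of DNA polymerase delta (r = 0.992 and 0.993). Ccne1 was most like Tbc1d19, Fancg, and Gpaa1, and Cdk2 most like Bri3bp, Timm21, and Fam92a. The conditions share times and libraries, so high values are reached by many genes, and no test was made. Cdk4 and Cdkn1b mirrored each other over the same means (r = -0.997 in the CD5/CD6 experiment and -0.996 in the LAT experiment).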

How the data were processed

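The deposited tables held raw counts per gene, which the authors made from single-read TruSeq Stranded mRNA libraries by trimming with DimerRemover, alignment to GRCm38 with STAR, and counting with featureCounts (bcl2fastq 2.17.1.14 per the submitters' processing notes). The annotation release, the use of strand, and the treatment of reads with several positions were not given in the sources used here. The tables of the CD5/CD6 and LAT experiments were analyzed separately. Genes with at least 1 read in a table were kept, libraries were scaled by TMM, and 1 model with a term per genotype and time was fitted to all samples of a table with edgeR 4.0.16 (quasi-likelihood test, limma 3.58.1, R 4.3.3). Calls required more than a 2-fold change and a Benjamini-Hochberg adjusted p under 0.05 over all genes tested. Intervals are 95%. A zero count allowed at most 3 counts, 0.0663 to 0.146 CPM in the CD5/CD6 experiment and 0.105 to 0.169 CPM in the LAT experiment, and such limits cover counting error only. Differences between responses were tested as interaction contrasts. The scripts were tested on simulated data. Alternatives were DESeq2 1.42.0, RLE factors or library totals, edgeR's filterByExpr, the compared groups alone, a replicate block, adjusted p alone, leaving out each replicate number, leaving out the 2 libraries against their labels, and raw-count shares. Leaving out the third WT library at 4 h of the LAT experiment was chosen after seeing the data.

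The members and gene lists were chosen with earlier results of these data known. All 10 members were named. From each pathway list, the 3 genes with the largest change in each direction among those called in WT cells at 20 h in both experiments were named. The 3 genes with the most similar pattern were taken by Pearson correlation. Gene positions and exon lengths on GRCm38 came with the deposited counts, and promoter windows from RefSeq on GRCm38.p6.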

Additional observations from a re-analysis of the deposited data

Results flagged for a closer look

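The response of a gene was marked where it differed between Lat-/- and WT cells by the test of the difference itself (edgeR's quasi-likelihood test of the interaction, fold change above 2, Benjamini-Hochberg adjusted p under 0.05). At 4 h against 0 h, 7 of the 10 genes were marked, beside 8.71% of all genes tested. The Lat-/- response was lower than the WT response, on the log2 scale, by -2.06 for Ccnd2, -1.27 for Cdk4, and -4.10 for Cdkn1a. It was higher by 1.12 for Ccnd3, 2.43 for Ccne1, 1.38 for Ccne2, and 1.45 for Cdkn1b. At 20 h against 0 h, 8 genes were marked, beside 19.5% of all genes tested. The differences were -2.25 for Ccnd2, -3.23 for Ccne1, -3.76 for Ccne2, -1.73 for Cdk2, -2.30 for Cdk4, -2.45 for Cdk6, -4.66 for Cdkn1a, and 3.48 for Cdkn1b. The differences of Ccne1 and Ccne2 had opposite signs at the 2 times, and that of Ccne2 at 4 h lost its call without the libraries numbered 1 (1.16, edgeR adjusted p = 0.195) and with the compared groups fitted alone (1.40, edgeR adjusted p = 0.0854). For Ccne1 the WT level at 4 h was below its 0 h level in all 3 libraries, and the Lat-/- level was lower too but by less. No difference between a response of Cd5-/-, Cd6-/-, or Cd5-/-Cd6-/- cells and the WT response was marked among the 10 genes.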

How the results depend on the processing

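No called value of the 10 genes changed direction under any alternative run, and DESeq2 and RLE factors left every call of the 35 comparisons as it was. By adjusted p alone, 8 genes were called in LAT WT cells at 4 h in place of 5 (29% of all genes), and in Lat-/- cells 9 at 4 h in place of 2 (15.4%) and 6 at 20 h in place of 1 (10.7%). The compared groups fitted alone moved Cdkn1b in LAT WT cells at 4 h just past the fold threshold and Ccnd3 between Lat-/- and WT cells at 4 h just under it, and ended the call of Ccne2 in the difference of responses at 4 h (edgeR adjusted p = 0.0854). With filterByExpr, 0 were called between Lat-/- and WT cells at 0 h. Leaving out each replicate number gave 1 to 3 genes for Lat-/- cells at 4 h, 1 to 2 for Lat-/- cells at 20 h, 0 to 1 for Lat-/- against WT cells at 0 h, 6 to 9 at 4 h, and 5 to 9 for the difference of responses at 4 h. It gave 0 to 1 for Cd5-/- against WT cells at 0 h and at 4 h. The cause was not tested. Library totals moved the median log2 fold change of genes with a mean count of at least 50 by -0.25 to 0.20, and Cdkn1b in LAT WT cells at 4 h was then at -1.20 and Cdkn2c in the difference at 4 h at 1.11, both past the fold threshold.

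With a replicate block, Cdkn1b at 4 h in WT cells (-1.01) and Cdkn2c in the difference of responses at 4 h (1.06) passed the fold threshold, and the block changed no other call. The labels do not say that a number marks a shared animal or day. Libraries of the same number deviated together with a mean r of 0.324 in the CD5/CD6 experiment, where 34 of 36 libraries correlated best with their own number, and 0.0927 in the LAT experiment, where 16 of 18 did, and 19 of 45 pairs there were over 0.1.

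With shares of raw counts in place of counts per kilobase, the Ccnd2 share differed by -22.8 percentage points between Lat-/- and WT cells at 20 h, the Ccne1 share by -22.0 between 20 h and 0 h in LAT WT cells, and the Cdk6 share by 2.50 and 6.33 over time in CD5/CD6 and LAT WT cells, by 2.83 in Lat-/- cells, and by -6.91 between Lat-/- and WT cells at 20 h. The Ccne1 share of CD5/CD6 WT cells changed by -19.4 to -9.67 percentage points when each replicate number was left out.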
